A study of Rattus norvegicus with 48 samples.

Results

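The comparison set the kidneys of strain F rats after 10 days of indole-3-carbinol against those after 7 days. It took the 4 arrays titled as strain F at day 10 and the 4 titled as strain F at day 7, which is 8 of the 48 arrays of the study. Each array measured kidney RNA of male rats, 12 weeks old in the sample labels, on an exon array that reads most genes through several probe sets. Both groups received indole-3-carbinol at 100 mg/kg/day by gavage, for 10 days in one and for 7 days in the other. Another group of 4 strain F arrays, day 0, had only the vegetable oil carrier and is given beside them. The other strains, L, FL and LF, were treated alike and supplied 24 arrays at days 10 and 7. No group had the carrier for 7 or 10 days, so time under the compound cannot be told apart from days of gavage or of collection. The labels do not expand the strain names. They give 8 rats for each group of 4 arrays and leave unsaid whether 1 animal or a pool gave the RNA of an array. The spread that p-values measure is therefore that between arrays and may be technical.

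Indole-3-carbinol is a plant compound whose acid products bind the aryl hydrocarbon receptor, a ligand-activated transcription factor that switches on Cyp1a1 and related detoxifying enzymes. High blood pressure harms the small vessels and tubules of the kidney. Injured proximal tubule cells display Havcr1 (kidney injury molecule), and injured tubules release clusterin and Lcn2. Heme oxygenase and metallothionein answer oxidant and metal stress. Infiltrating macrophages, matrix deposition and the immediate early transcription factors, which answer growth and stress signals quickly, accompany such injury.

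Promoter sequences are shown for 5 genes on which the results below turn, as the 200 bases before the RefSeq start in GRCr8, read 5′ to 3′ on the gene's strand. Mt1 was higher than day 0 at both treated days, Dusp1 and Egr1 lead the immediate early genes, and Ifi27 and Bst2 are among the genes whose response differed between strains F and LF. Capitals mark matches on either strand to a motif known for that class of gene: TGCACNC or TGCGCNC, the core of the metal response element, in Mt1, the cAMP response element TGACGTCA in Dusp1, the CArG box that serum response factor binds in Egr1, and GAAANNGAAA, the core of the interferon-stimulated response element, in Ifi27 and Bst2.
Mt1, chr19:10832976-10833175, minus strand: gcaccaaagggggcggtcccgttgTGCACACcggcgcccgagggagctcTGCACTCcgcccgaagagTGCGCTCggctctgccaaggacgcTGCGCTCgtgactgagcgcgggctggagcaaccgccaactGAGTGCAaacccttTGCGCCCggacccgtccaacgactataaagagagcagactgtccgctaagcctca
Dusp1, chr10:17184653-17184852, plus strand: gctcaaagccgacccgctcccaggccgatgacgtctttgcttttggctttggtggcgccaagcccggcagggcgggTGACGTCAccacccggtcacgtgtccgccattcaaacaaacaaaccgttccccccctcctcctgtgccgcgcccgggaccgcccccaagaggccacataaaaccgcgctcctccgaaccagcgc
Egr1, chr18:26736878-26737077, plus strand: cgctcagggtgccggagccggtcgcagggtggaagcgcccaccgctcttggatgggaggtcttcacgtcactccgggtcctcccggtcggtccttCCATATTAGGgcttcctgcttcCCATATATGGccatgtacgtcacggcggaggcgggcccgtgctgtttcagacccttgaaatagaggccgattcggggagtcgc
Ifi27, chr6:128355112-128355311, plus strand: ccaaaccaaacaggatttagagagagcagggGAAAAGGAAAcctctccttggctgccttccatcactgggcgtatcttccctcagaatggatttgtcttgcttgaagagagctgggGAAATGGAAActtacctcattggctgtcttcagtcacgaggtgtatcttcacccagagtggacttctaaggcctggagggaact
Bst2, chr16:18254968-18255167, minus strand: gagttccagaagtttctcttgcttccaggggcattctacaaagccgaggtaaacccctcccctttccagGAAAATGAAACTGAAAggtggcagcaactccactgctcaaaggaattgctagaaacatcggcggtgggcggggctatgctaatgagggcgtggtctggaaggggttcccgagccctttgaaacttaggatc
The Mt1 window held 6 metal response element cores, a motif found in 17.4% of 33469 promoter windows of this length. The Dusp1 window held 1 cAMP response element (1.46% of windows), the Egr1 window 2 CArG boxes (1.16%), and the Ifi27 and Bst2 windows 2 interferon element cores each (2.74%), which overlap in Bst2. A match describes these letters and is not a bound site.

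Probe set values are on the log2 intensity scale, and a gene value is the median polish of the probe sets of 1 gene. The median of an array was 6.27 ± 0.19 (SD) at day 10, against 6.37 ± 0.14 at day 7, with 4 arrays in each group, a difference of -0.11 (exact two-sided permutation p = 0.429, where the smallest possible is 0.0286). Day 10 was the lower in 4 of 4 pairs of arrays with the same replicate number. Without day 10 replicate 4 the difference between array medians was -0.04, and without day 10 replicate 1 it was -0.19. The median difference over all genes was -0.06 on the log2 scale, with 66.4% of genes lower and 33.6% higher at day 10, and it ran from -0.01 (without day 10 replicate 4) to -0.10 (without day 10 replicate 1) when 1 array was left out. Quantile normalization of the arrays turned the median to 0.01 and put 53.4% of genes higher. List medians are therefore set below beside the median of all genes. Differences of single genes, with their intervals, p-values and signs in pairs, are given without correction for this shift. Markers of kidney tubules were read on the arrays of both groups. The phosphate transporter Slc34a1 of the proximal tubule averaged 11.71 at day 10 and 11.77 at day 7. Uromodulin, Umod, of the loop of Henle averaged 12.70 at day 10 and 12.69 at day 7.

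No gene passed the limma test between day 10 and day 7. Of 7997 genes 0 (0%) had an adjusted p under 0.05, the smallest adjusted p being 0.292, and 348 (4.35%) had an unadjusted p under 0.05, 136 (1.7%) higher and 212 (2.65%) lower at day 10. After quantile normalization the unadjusted split was 210 higher and 125 lower. The arrays of the day 10 group and the day 7 group did not overlap for 163 genes (2.04%), with day 10 above in 57 (0.713%) and below in 106 (1.33%). The replicate block, quantile normalization, the mean of probe sets, array weights and a fit of these 8 arrays by themselves each called 0 genes as well, and leaving out the fourth day 10 array called 1. The 95% interval of the difference lay within 2-fold in either direction for 7772 genes (97.2%) and within 1.5-fold for 6443 (80.6%). A point estimate beyond 2-fold was found for 2 genes, both olfactory receptor genes read by 1 probe set each (Or8g51, 1.81, and Or4f58, -1.10), named after their values were seen.

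Havcr1, Clu, Mt1 and Cyp1a1 passed the limma test against day 0 at both days, all of them higher after treatment, and none was called between day 10 and day 7. Lcn2 and Hmox1 had higher means than day 0 at both days without passing. Havcr1, the injury molecule of the proximal tubule, averaged 4.56 ± 0.31 at day 0, 7.52 ± 0.58 at day 7 and 7.31 ± 0.63 at day 10 (log2 values, SD, n = 4). Its day 10 arrays read 7.39, 7.75, 6.39 and 7.71, against 7.78, 7.34, 6.79 and 8.15 at day 7. The groups overlapped, with 1 day 10 array below all day 7 arrays and 2 day 7 arrays above all day 10 arrays. The difference was -0.20 ± 0.47 (SE, limma adjusted p = 0.969), with a 95% interval from -1.15 to 0.74, so a change of up to about 2-fold downward is within the error. Of its 11 probe sets 6 were lower and 5 higher.

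Clusterin, Clu, a secreted chaperone of injured tubules, read 9.30, 9.64, 8.57 and 9.27 at day 10, against 9.45, 8.99, 9.02 and 9.54 at day 7. The difference was -0.05 ± 0.22 (interval -0.50 to 0.39), and day 0 averaged 8.23 ± 0.04. Lcn2, a lipocalin that binds iron carriers and appears in urine after tubular injury, read 4.09, 3.87, 3.90 and 4.18 at day 10, against 3.83, 3.72, 3.77 and 4.41 at day 7, a difference of 0.08 ± 0.26. All 8 treated arrays lay above the Lcn2 mean of day 0, 3.38, yet its differences from day 0 did not pass the test (0.63 for day 10 with an adjusted p of 0.43, and 0.56 for day 7 with one of 0.676).

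Mt1, a metallothionein that binds zinc and copper and whose promoter is printed above, read 12.01, 11.04, 12.17 and 12.28 at day 10, against 12.40, 12.21, 12.59 and 12.31 at day 7. The day 10 array was the lower in 4 of 4 pairs, by little in replicate 4 and most in replicate 2. Such a run is common here: 15.3% of all genes were lower at day 10 in 4 of 4 pairs and 3.69% were higher. All 7 of its probe sets were lower at day 10. The difference of -0.50 ± 0.34 (interval -1.20 to 0.19, adjusted p = 0.961) did not pass, and both days were above the day 0 mean of 9.91 ± 0.25.

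Hmox1, the inducible heme oxygenase, varied more between arrays of 1 group than any other gene with 3 or more probe sets at either day. Its values were 8.47, 8.94, 8.54 and 5.15 at day 10, against 7.75, 5.26, 9.41 and 8.88 at day 7. One array in each group, replicate 4 at day 10 and replicate 2 at day 7, lay at the level of day 0 (5.05 ± 0.07), and the other 6 lay between 7.75 and 9.41. The difference of -0.05 ± 0.88 had an interval from -1.83 to 1.73. Slc25a25, a calcium-sensitive ATP carrier of mitochondria, had a day 10 array of its own at the day 0 level: replicate 2 read 6.76 beside 8.96, 8.45 and 8.90, against 8.29, 8.76, 8.93 and 8.66 at day 7 and a day 0 mean of 6.77 ± 0.17.

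Cyp1a1, a cytochrome P450 and the best known target of the aryl hydrocarbon receptor, read 6.60, 7.05, 7.27 and 7.66 at day 10, against 6.19, 5.69, 8.90 and 7.03 at day 7. The SD was 0.44 at day 10 and 1.41 at day 7, where replicate 3 lay far above the rest. The difference was 0.19 ± 0.41 (interval -0.63 to 1.01, adjusted p = 0.969). Of 9 measured targets of the receptor 3 were higher and 6 lower. Nqo1, a quinone reductase, differed by -0.45 ± 0.25, Aldh1a3, a retinal dehydrogenase, by -0.25 ± 0.12, and Ahrr, the receptor's repressor, by 0.17 ± 0.09. Of the angiotensin system genes, angiotensinogen (Agt) differed by -0.15 ± 0.14 and the angiotensin-converting enzyme gene Ace by -0.16 ± 0.16. Agtr2, the type 2 angiotensin receptor, read 2.34, 1.78, 2.52 and 2.77 at day 10, against 2.37, 3.41, 3.07 and 3.54 at day 7 (-0.74 ± 0.35, adjusted p = 0.961). Bdkrb2, the bradykinin B2 receptor, read 4.92, 3.91, 4.70 and 4.26, against 5.39, 4.80, 5.36 and 5.31 (-0.77 ± 0.33, adjusted p = 0.961). Both receptors were lower at day 10 in 4 of 4 pairs, as were 15.3% of all genes. Both read below the median level of all genes, 5.86, with Agtr2 the dimmer.

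**Figure D1:**
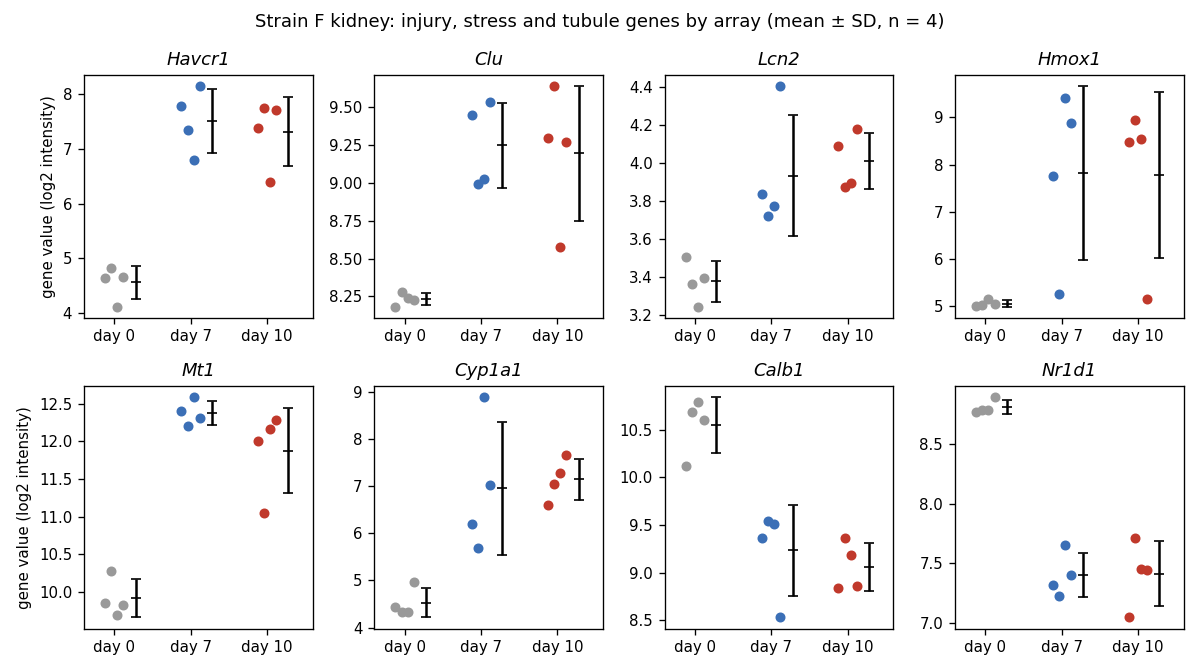
Gene values (log2 intensity, y axis) of 8 genes on the 4 strain F arrays of day 0, day 7 and day 10 (points), with the mean and SD of each group. Havcr1, Clu, Lcn2, Mt1 and Cyp1a1 lie above day 0 on both treated days, Calb1 and Nr1d1 below, and 1 Hmox1 array of each treated day (5.15 at day 10 and 5.26 at day 7) lies at the day 0 level.

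The genes called against day 0 were read next, for the position of day 10 relative to day 7. The test called 55 genes (0.688%) between day 7 and day 0, of which 35 (0.438%) were higher after treatment and 20 (0.25%) lower. Between day 10 and day 0 it called 30 (0.375%), of which 11 (0.138%) were higher and 19 (0.238%) lower. Blocking on the replicate number made the day 10 count 52 and the day 7 count 75. The 2 comparisons share the day 0 arrays, and a gene called at day 7 was chosen with the same day 7 arrays that enter the difference, so the counts that follow are a description. Of the 35 genes called higher at day 7, all 35 were above day 0 at day 10 too. Of these, 33 had a day 10 mean below that of day 7, beside 66.4% of all genes. The median difference of the 35 from day 0 was 0.82 at day 7 and 0.56 at day 10. Of the 20 called lower at day 7, 19 were below day 0 at day 10, and the median was -0.78 at day 7 and -0.76 at day 10. Of the 30 genes called at day 10, all had the same direction at day 7.

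Among the lower genes, Calb1, the calcium-binding calbindin of the distal tubule, read 8.84, 9.36, 9.18 and 8.86 at day 10, against 9.36, 9.54, 9.51 and 8.53 at day 7 and a day 0 mean of 10.55 ± 0.30 (day 10 minus day 7 -0.18 ± 0.24). Nr1d1, the clock repressor REV-ERBα, averaged 8.81 ± 0.06 at day 0, 7.40 ± 0.18 at day 7 and 7.41 ± 0.28 at day 10. Its difference between the treated days was 0.01 ± 0.25, with an interval from -0.49 to 0.52. The stearoyl-CoA desaturase Scd averaged 7.99 at day 0, 6.49 at day 7 and 6.73 at day 10, and day 10 was the higher of the treated days in 4 of 4 pairs (0.24 ± 0.28, adjusted p = 0.961). Grem1, an inhibitor of bone morphogenetic proteins, differed by 0.13 ± 0.28, and the sodium-calcium exchanger Slc8a1 by 0.29 ± 0.26. Cacng5, a calcium channel gamma subunit, passed against day 0 at day 10 (-1.15, adjusted p = 0.0185) and not at day 7 (-0.82, adjusted p = 0.143), while the difference between these days was -0.33 ± 0.24 (adjusted p = 0.961). Among the higher genes, Atp12a, a proton-potassium pump of the collecting duct, read 5.88, 4.37, 4.65 and 4.85 at day 10, against 4.96, 5.04, 5.19 and 5.49 at day 7, a difference of -0.23 ± 0.21. The sulfotransferase Sult1a1 was called against day 0 at day 7 (1.57, adjusted p = 0.0112) and not at day 10 (0.95, adjusted p = 0.326). It read 8.63, 7.91, 8.30 and 9.40 at day 10, against 9.36, 9.20, 9.59 and 8.60 at day 7 (-0.63 ± 0.35, adjusted p = 0.961), so this loss of the call is not shown to be a difference between the days. Fgb, the fibrinogen beta chain, differed by -0.45 ± 0.29 and the clock gene Per2 by -0.37 ± 0.14. Per2 read 7.08, 6.88, 6.99 and 7.05 at day 10, against 7.46, 7.38, 7.42 and 7.22 at day 7, with no overlap.

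Since no gene passed, the genes with the largest differences were taken from those with 3 or more probe sets, an unadjusted p under 0.05 and 1 direction in the 4 pairs of arrays with the same number. Only 44 genes were eligible upward and 139 downward. The sign in the pairs and the unadjusted p were part of the choice, so the values below are a description and support nothing by themselves.

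The lower end was led by Cyp24a1. This enzyme, which inactivates vitamin D, read 7.15, 6.08, 6.65 and 6.92 at day 10, against 7.92, 7.63, 7.58 and 7.07 at day 7 (-0.85 ± 0.37, interval -1.60 to -0.09, limma adjusted p = 0.961). The day 10 arrays lay below the day 7 arrays apart from day 7 replicate 4. All 17 of its probe sets were lower at day 10, and the vitamin D receptor gene Vdr differed by -0.27 ± 0.13. Rhoh, a small GTPase of blood cells, read 2.96, 3.26, 3.03 and 3.13 at day 10, against 3.92, 3.81, 4.12 and 3.68 at day 7 (-0.79 ± 0.21, adjusted p = 0.921). The groups did not overlap, and day 0 (3.47 ± 0.11) lay between them. Lumican, Lum, a proteoglycan that orders collagen fibrils, read 3.30, 2.80, 3.54 and 2.92 at day 10, against 4.09, 4.32, 4.02 and 3.15 at day 7 (-0.75 ± 0.21, adjusted p = 0.921). Lum had been called higher than day 0 at day 7 (1.32, adjusted p = 0.00074), while its day 10 difference from day 0 was 0.56 (adjusted p = 0.363). Dusp1, a phosphatase that turns off MAP kinases and an immediate early gene, read 7.81, 7.25, 7.41 and 7.19 at day 10, against 7.90, 8.13, 8.41 and 7.75 at day 7 (-0.63 ± 0.21, adjusted p = 0.921). Ccn1, a matrix protein induced by growth factors and injury, read 8.13, 7.71, 7.59 and 7.13 at day 10, against 8.27, 8.40, 8.15 and 8.09 at day 7 (-0.59 ± 0.18). The others were Vof16 (-0.77), neuropeptide Y, Npy (-0.75), Olfml1, an extracellular olfactomedin-like protein (-0.60), Omd, osteomodulin of the matrix (-0.60), and Mia (-0.57). The next gene outside the 10 was Rgs2 (-0.56).

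The upper end was made of dimmer genes, though dim genes stood at the lower end too. Of the 10 named in each direction, 9 upward and 6 downward lay below the median level of all genes (5.86). Rhoh and Lum, described above, read below that level on every array of both days. Of the 44 eligible genes 42 lay below the median level of all genes and 12 were olfactory receptors, against 49 and 1 of the 139 eligible downward. Olfactory receptors make up 1039 of the 7997 genes measured. Ucp1, the uncoupling protein of brown fat, read 3.74, 4.82, 4.23 and 3.55 at day 10, against 3.15, 3.81, 3.62 and 3.17 at day 7 (0.64 ± 0.29, adjusted p = 0.961). The group ranges overlapped, and the fat cell list is given below. Cldn9, a tight junction claudin, read 5.93, 5.94, 6.30 and 6.44 at day 10, against 5.75, 5.64, 5.70 and 5.16 at day 7 (0.59 ± 0.18, adjusted p = 0.921), with no overlap. Its day 0 mean, 6.04 ± 0.05, lay beside that of day 10. Reg4, a secreted lectin (0.51), Cklf, a chemokine-like factor (0.49), Hpca, a neuronal calcium sensor (0.45), and Gpr83, a G protein-coupled receptor (0.42), were also named, with 4 olfactory receptors, Or8k25, Or8b3, Or5m10 and Or7g23e (0.43 to 0.45). Or8k25 read 2.37, 2.57, 2.09 and 2.44 at day 10, against 1.89, 1.97, 1.92 and 1.87 at day 7 (adjusted p = 0.292). Just outside the 10 lay Adh4 (0.41).

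**Figure D2:**
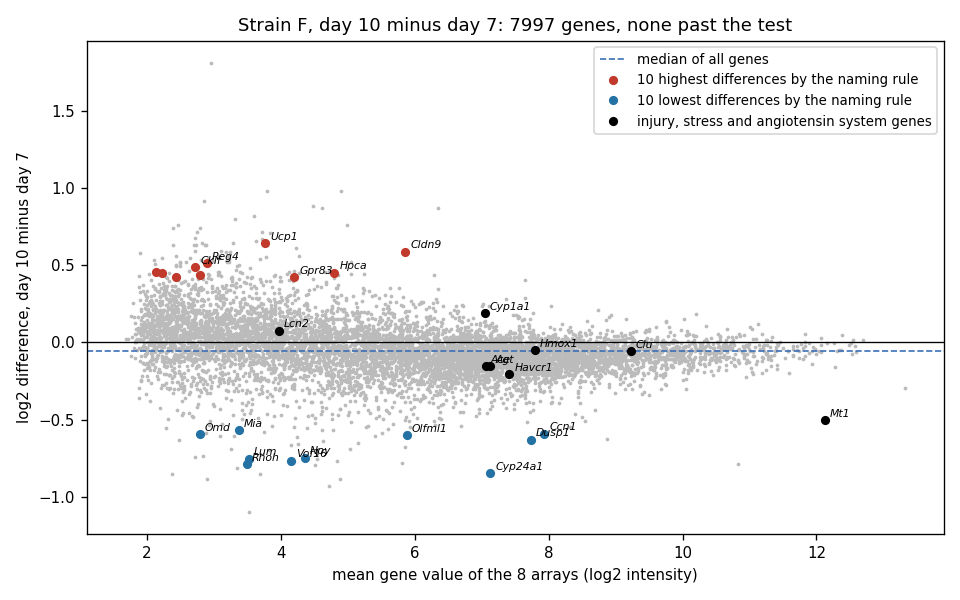
Log2 difference between day 10 and day 7 (y axis) against the mean gene value of the 8 arrays (x axis, log2 intensity) for 7997 genes (grey), with the 10 highest (red) and 10 lowest (blue) differences of the naming rule and the injury, stress and angiotensin system genes (black). The dashed line is the median of all genes, -0.06. The wide scatter lies at low values, where most red points are, and the blue points reach to higher values. The olfactory receptors carry no name in the plot.

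**Figure D3:**
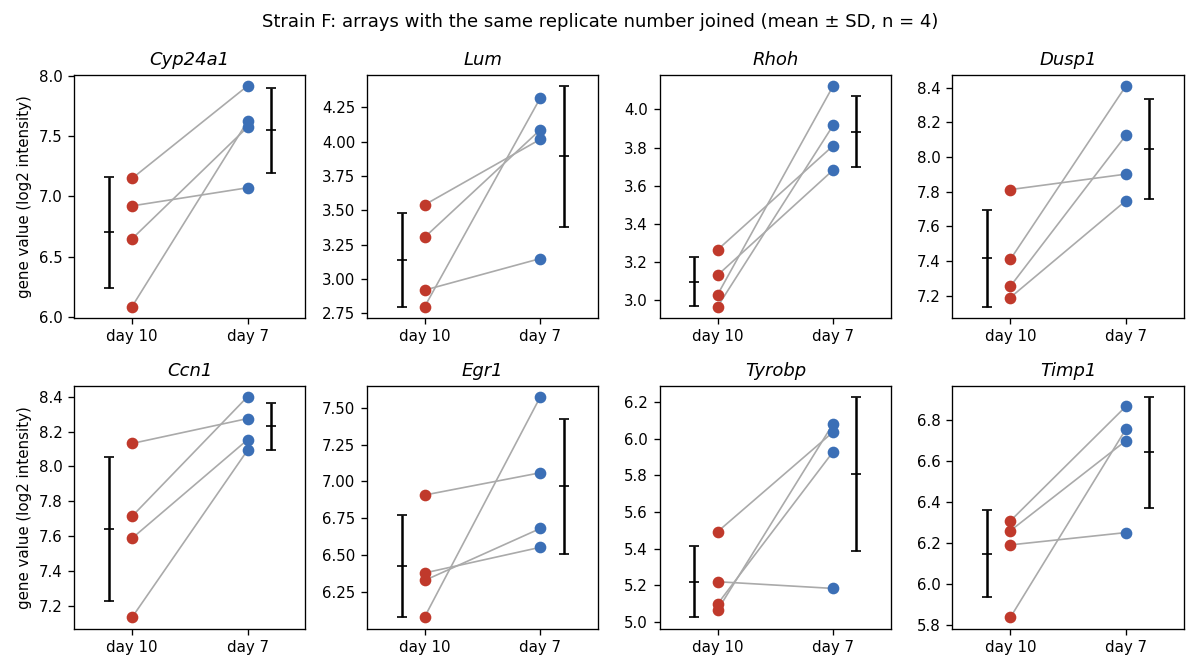
Gene values (log2 intensity, y axis) of 8 genes on the 4 arrays of day 10 and of day 7 in strain F, with arrays of the same replicate number joined and the mean and SD of each group. Cyp24a1, Lum, Rhoh, Dusp1, Ccn1, Egr1 and Timp1 are lower at day 10 in 4 of 4 pairs and Tyrobp in 3 of 4. None passed the test.

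The gene lists, 34 of them, were described by counts and medians beside those of all genes, since no member of any list passed the test. Of all genes 66.4% were lower at day 10, so counts of lower members are read against that share. The lists of immediate early genes and of macrophage and monocyte markers lay lowest. All 18 measured immediate early genes had a day 10 mean below day 7 (median difference -0.21, all genes -0.06), 6 of them with an unadjusted p under 0.05, against 2.65% of all genes in that direction. The mean value of the 18 was 6.16, 5.88, 5.94 and 6.001 on the day 10 arrays, against 6.27, 6.19, 6.41 and 6.23 on the day 7 arrays. The 2 groups did not overlap, and the day 0 arrays lay between 5.96 and 6.08. After quantile normalization the median was -0.13 beside 0.01 for all genes, and 2 of the 18 were higher. Leaving out 1 array gave medians from -0.29 to -0.22. Next to Dusp1 stood Nr4a1, an orphan nuclear receptor, with 5.45, 4.83, 5.18 and 5.26 at day 10, against 5.90, 5.45, 5.94 and 5.40 at day 7 (-0.49 ± 0.19), and Egr1, a zinc finger factor, with 6.91, 6.33, 6.08 and 6.38, against 7.06, 6.68, 7.57 and 6.55 (-0.54 ± 0.21). The adjusted p of both was 0.961. All 6 probe sets of Dusp1 and all 14 of Egr1 were lower at day 10.

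Of 16 macrophage and monocyte markers 14 were lower at day 10, beside 66.4% of all genes, with a median of -0.30. An unadjusted p under 0.05 was reached by 6, all downward, against 2.65% of all genes in that direction. Tyrobp, an adaptor of myeloid receptors, read 5.49, 5.06, 5.10 and 5.22 at day 10, against 6.04, 6.08, 5.93 and 5.18 at day 7 (-0.59 ± 0.18, adjusted p = 0.921). Laptm5, a lysosomal protein of blood cells, read 6.88, 6.86, 6.83 and 6.86, against 7.55, 7.26, 7.33 and 7.12 (-0.46 ± 0.15, adjusted p = 0.921), without overlap. Lyz2, the macrophage lysozyme, read 8.28, 8.61, 8.36 and 7.78, against 9.04, 8.83, 8.79 and 8.31 (-0.48 ± 0.18, adjusted p = 0.961). The complement chains C1qa (-0.42) and C1qc (-0.36) and the protease Ctss (-0.45) made up the 6. Aif1 and Lgals3 (0.05 and 0.04) were the 2 that were not lower. The mean value of the list ranged from 5.95 to 6.31 at day 10, from 6.18 to 6.68 at day 7 and from 6.27 to 6.59 at day 0, so the groups overlapped. The median was -0.18 after quantile normalization, beside 0.01 for all genes, and between -0.16 and -0.47 when 1 array was left out. In RNA of whole kidney, fewer cells of a type and less RNA per cell cannot be told apart.

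Tubular injury genes, 26 measured, had a median of -0.10, with 23 lower, beside 66.4% of all genes. The tissue inhibitor of metalloproteinases Timp1 read 6.26, 6.31, 6.19 and 5.84 at day 10, against 6.70, 6.87, 6.25 and 6.76 at day 7 (-0.49 ± 0.20, adjusted p = 0.961). Ceruloplasmin, Cp, the copper oxidase of plasma, read 7.30, 7.14, 7.16 and 7.02, against 7.87, 7.47, 7.65 and 7.34 (-0.43 ± 0.19). With Ccn1 these were the 3 that reached an unadjusted p under 0.05, all downward, against 2.65% of all genes in that direction. After quantile normalization the median of the list was -0.03 and 10 of the 26 were higher, so the list stayed near all genes. The matrix list (20 measured) had a median of -0.14, and Lox, which cross-links collagen, read 4.94, 4.70, 4.92 and 4.78 at day 10, against 5.22, 5.03, 5.29 and 5.12 at day 7 (-0.33 ± 0.12, adjusted p = 0.961), without overlap. The fasting and fat-burning list (25 measured) had a median of -0.17, with 24 lower. After quantile normalization its median was -0.09, with 19 lower. Cpt2, which takes fatty acids into mitochondria, differed by -0.37 ± 0.18, Ucp3 by -0.30 and Fabp1, the only member that was higher, by 0.22. Smooth muscle and pericyte genes had a median of -0.13 over 10, with Actg2 (-0.38 ± 0.14), Tpm2 (-0.34 ± 0.15) and Tagln (-0.32 ± 0.15) lowest.

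Of the other stress and signalling lists, some lay as low as the matrix and smooth muscle lists, and others lay nearer to all genes or above them. Their order was not steady. Of the 34 lists 29 had a median below 0, and for 8 of these leaving out 1 array put it above 0. The counts of lower members that follow stand beside 66.4% of all genes lower at day 10. Medians were -0.11 for heme, metallothionein and NRF2 targets (13 of 13 lower), -0.12 for heat shock proteins and DnaJ co-chaperones (12 of 12 lower), -0.13 for the integrated stress and unfolded protein response (15 of 18 lower), -0.11 for glucocorticoid and mineralocorticoid responsive genes (15 of 17), -0.12 for acute phase, complement and coagulation (15 of 18), -0.14 for the circadian clock (11 of 12) and -0.15 for phase II conjugation (16 of 18). After quantile normalization 9 of the 13 heme, metallothionein and NRF2 targets and 9 of the 12 heat shock genes were lower, and without day 10 replicate 4 the median of the first was -0.02 with 7 of 13 lower. The mean of the integrated stress list lay between 7.64 and 7.77 on the day 10 arrays and between 7.80 and 7.87 on the day 7 arrays. The stress factors Atf3 (-0.51 ± 0.25) and Atf4 (-0.35 ± 0.16) were its lowest named members. In each, replicate 4 of 1 day stood apart, as the highest day 7 array for Atf3 and the lowest day 10 array for Atf4. Both arrays widen the difference. Angiotensin system genes had a median of -0.15 (7 of 9 lower). Without day 10 replicate 4 it was 0.01, with 4 of 9 lower, so the sign of the median turned without 1 array. Without day 7 replicate 2 it was -0.05, and after quantile normalization -0.05 with 5 of 9 lower. It was -0.13 with 8 lower in the mean of probe sets, and -0.16 with 9 lower under array weights. The mean value of this list was 7.25, 6.97, 6.91 and 6.75 on the day 10 arrays, against 7.15, 7.29, 7.17 and 7.06 at day 7. Medians were -0.11 for cell cycle and DNA replication genes (12 of 14 lower), -0.07 for growth factors and antagonists, -0.06 for aryl hydrocarbon receptor targets, -0.03 for chemokines and cytokines, -0.01 for kallikrein-kinin genes and 0.01 for sterol and fatty acid synthesis. Respiratory chain genes had -0.09.

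Genes of the nephron segments lay close to the median of all genes. It was -0.05 for 24 proximal tubule genes, whose differences ran from -0.26 to 0.05, 0.00 for 13 genes of the distal nephron and loop of Henle, -0.06 for 16 of the collecting duct, -0.07 for 11 of distal calcium handling, -0.08 for 10 of the podocyte and -0.10 for 14 of the endothelium. No member of the proximal tubule, loop, collecting duct, podocyte and endothelial lists had an unadjusted p under 0.05. Interferon response genes split 10 and 10 (median 0.00), led by Oas1a, an RNA-activated synthetase (0.52 ± 0.27, adjusted p = 0.961).

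Markers of other cell types were mixed. The beta globin gene Hbb read 9.85, 11.34, 10.95 and 9.61 at day 10, against 11.51, 11.23, 11.39 and 10.79 at day 7 (-0.79 ± 0.35, adjusted p = 0.961), with day 10 replicates 1 and 4 lowest. Hba-a2, an alpha globin, differed by -0.29 ± 0.15, and the red cell and platelet list ranged from 7.41 to 8.24 on the day 10 arrays and from 7.94 to 8.19 on the day 7 arrays. The part of blood in the other differences was not tested. Fat cell markers had a median of 0.07 over 9, with Adipoq at 0.18 and Lep, leptin, at 0.24 ± 0.21 beside Ucp1, and a list mean from 4.61 to 4.93 at day 10 and from 4.53 to 4.76 at day 7. The adrenal list (median 0.05 over 7) stayed at low values, with a list mean from 3.62 to 3.83 and from 3.63 to 3.75. Lymphocyte markers had a median of -0.05 over 12, with Cd4, which rat macrophages also carry, lowest (-0.54 ± 0.19), neutrophil and mast cell markers 0.08 over 6, and genes of MHC and antigen presentation -0.04 over 15.

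**Figure D4:**
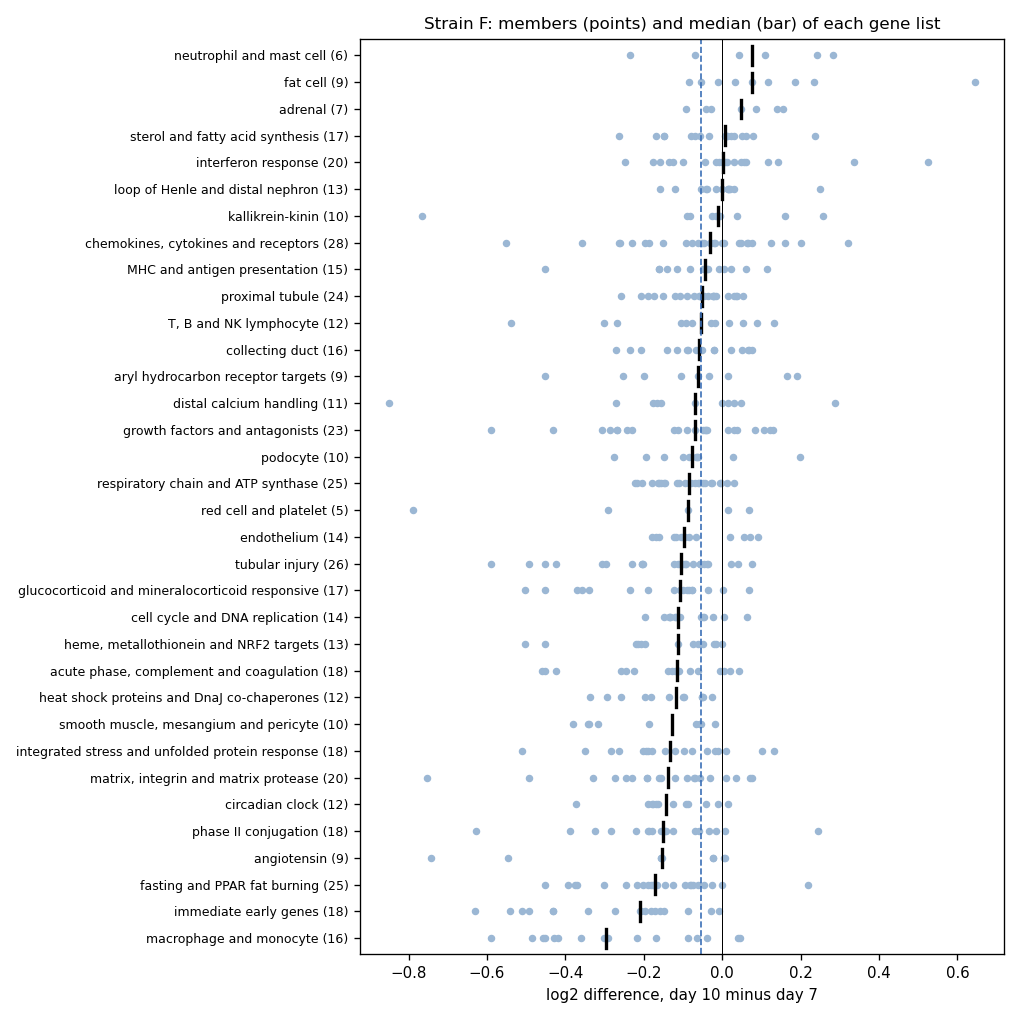
Log2 difference between day 10 and day 7 in strain F (x axis) for the measured members (points) and the median (bar) of each gene list (rows, with the number measured). The dashed line is the median of all genes, -0.06. Macrophage and monocyte (-0.30) and immediate early genes (-0.21) have the lowest medians, and the nephron segments lie by the dashed line.

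The difference between day 10 and day 7 was then set against the same difference in the other strains. Against the mean of L, FL and LF, 0 genes passed the limma test (0%) and 1364 (17.1%) had an unadjusted p under 0.05, 283 (3.54%) with a higher and 1081 (13.5%) with a lower response in F. The median over all genes was -0.12, and quantile normalization turned it to 0.04 and the unadjusted counts to 660 and 343. With the replicate number as a block 15 genes passed, 2 higher and 13 lower, and with array weights 774. Tyrobp (F -0.59, L 0.43, FL 0.29 and LF 0.31, response difference -0.94 ± 0.21, adjusted p = 0.102), Timp1 (F -0.49, L 0.40, FL 0.61 and LF 0.60, -1.03 ± 0.23, adjusted p = 0.102), Lum (F -0.75, L 0.25, FL 0.55 and LF 0.21, -1.09 ± 0.25, adjusted p = 0.102) and Rhoh (F -0.79, L 0.60, FL 0.18 and LF 0.15, -1.10 ± 0.24, adjusted p = 0.102) had negative estimates in F and positive ones in the other strains. Each of the 4 was among the 15 of the block fit, with adjusted p = 0.0428. In F, Rhoh and Lum read below the median level of all genes. Lyz2, Cyp24a1, Tpm2 and Gfpt2, which makes hexosamine, were in the 15 too. Havcr1 was -0.20 in F beside 1.37 in L, 1.12 in FL and 1.60 in LF (response difference -1.57 ± 0.54, adjusted p = 0.231). Clu was -0.05 in F beside 0.63, 0.44 and 1.21 (-0.82 ± 0.25, adjusted p = 0.21). Neither difference passed.

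Against strain L and against strain FL alone, 0 genes passed (0% each), with 635 (7.94%) and 674 (8.43%) at an unadjusted p under 0.05. Array weights called 3 genes and 2 genes, and quantile normalization called 2 against L. The clock gene Per2 was -0.37 in F and 0.55 in FL, and Sik1, a salt-inducible kinase, -0.36 in F and 0.56 in FL.

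Against strain LF the test called 17 genes (0.213%), 1 (0.0125%) with a higher response in F, Or6s1, and 16 (0.2%) with a lower one. The interferon response list, 20 measured, held 6 of the 16, Mx2, Mx1, Slfn3, Ifi27, Irf9 and Oasl2. Mx2, a dynamin-like antiviral GTPase, read 5.47, 6.42, 5.34 and 4.95 at day 10, against 5.72, 5.62, 5.44 and 5.35 at day 7 in F, a difference of 0.01 ± 0.35. In LF it averaged 7.88 ± 0.77 at day 10 and 5.08 ± 0.20 at day 7 (SD, n = 4), a difference of 2.80 ± 0.35 (adjusted p = 6e-06). The response of F minus that of LF was -2.79 ± 0.50 (adjusted p = 0.00599). For Mx1 the F arrays read 4.10, 4.42, 4.27 and 3.69, against 4.61, 4.38, 3.94 and 4.25, and the response difference was -2.25 ± 0.41 (adjusted p = 0.00599). Slfn3, a Schlafen family gene, gave 0.03 in F and 2.40 in LF (-2.37 ± 0.44, adjusted p = 0.00599). Ifi27, a small membrane protein of mitochondria, gave -0.10 and 1.36 (-1.46 ± 0.27, adjusted p = 0.00599). Bst2, tetherin, which holds budding virus at the cell surface, gave -0.24 and 0.98 (-1.22 ± 0.24, adjusted p = 0.0183).

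Irf9, Oasl2, Oas1i, Phf11, Sp100 and Slfn9 had response differences from -1.54 to -1.36. The others of the 16 were Tmsb10 (-1.15), which binds actin, Tagln of smooth muscle (-0.93), the receptor kinase Axl (-0.78), the collagen hydroxylase P4ha1 (-0.75) and the cholesterol carrier Npc2 (-0.54). For these genes the larger movement was in LF in all but P4ha1, whose difference was -0.39 ± 0.12 in F and 0.36 ± 0.12 in LF. P4ha1 read 7.56, 7.46, 7.74 and 7.498 at day 10, against 7.95, 7.98, 8.13 and 7.77 at day 7 in F. Within LF itself 107 genes (1.34%) passed between day 10 and day 7, and 0 within L or FL. The count of 17 was 100 with the replicate block, 10 after quantile normalization, 208 with array weights and 0 when the other groups were left out of the fit, where Mx2 had an adjusted p of 0.0613. Leaving out 1 array of F or LF gave 4 to 27 genes, with the fewest, 4, without day 10 replicate 4 or day 7 replicate 1 of F or day 7 replicate 3 of LF.

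**Figure D5:**
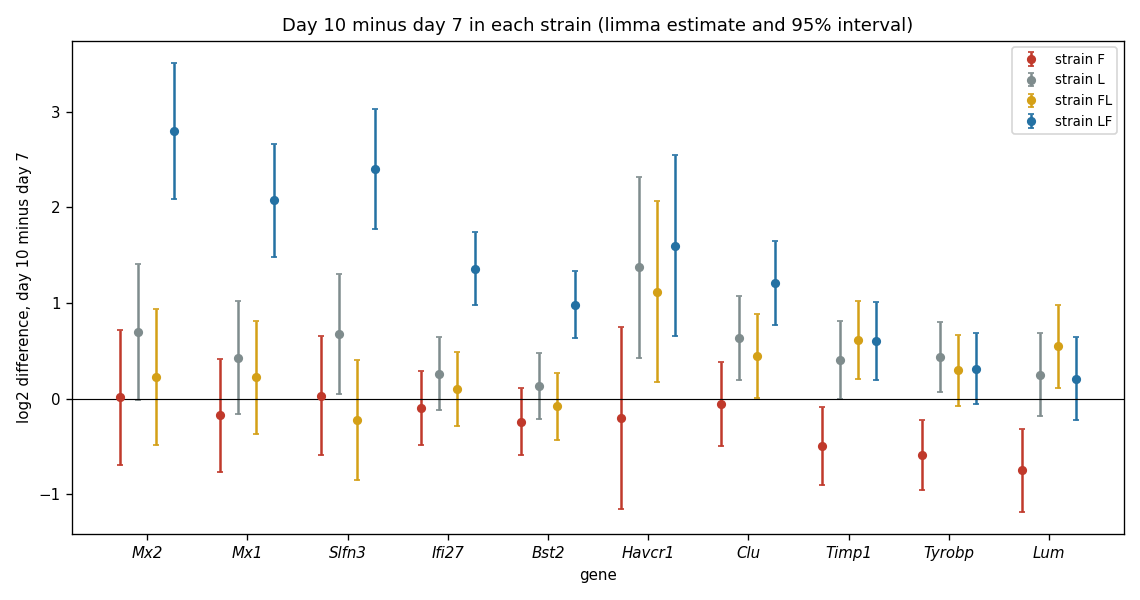
Log2 difference between day 10 and day 7 (y axis, limma estimate with its 95% interval) for 10 genes (x axis) in strains F, L, FL and LF. Mx2, Mx1, Slfn3, Ifi27 and Bst2 are near 0 in F and above 0 in LF, and Timp1, Tyrobp and Lum lie below 0 in F and above 0 in the other strains.

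Use of probe sets within genes was compared last, because an exon array can show a transcript part that moves apart from its gene. By its gene-level test limma diffSplice called 1 of 7001 genes (0.0143%), Plekha3, a phosphoinositide-binding protein of the Golgi (adjusted p = 0.0153), and 299 had an unadjusted p under 0.05. The call rested on 1 of its 10 probe sets, number 6189933, which read 4.68, 3.26, 5.13 and 5.81 at day 10, against 3.29, 3.08, 2.34 and 2.42 at day 7. The gene value itself differed by -0.02 ± 0.12. The difference between the days was 2.00 higher for this probe set than for the rest of the gene. Day 10 replicate 2 overlapped the day 7 arrays. In a limma test of each probe set minus the mean of its gene no gene was called, and counts over the other settings ran from 0 to 19 genes, so the call depends on the test. The next 4 genes by p, Il13, Trex1, Myh9 and Panx3, did not pass at the gene level (adjusted p = 0.124 to 0.131). The diffSplice test of single probe sets called 51 of 83901 (0.0608%) in 50 genes. Their day 10 minus day 7 difference was above that of the rest of their gene in 16 and below it in 35. The smallest p was that of probe set 6200199 of Myh9, a non-muscle myosin heavy chain, chosen after its values were seen. Its difference was -1.89 relative to that of the rest of its gene (diffSplice adjusted p = 2.72e-13). That p rests on a spread pooled over all probe sets of the gene and does not measure the spread of this one. The probe set read 5.13, 2.07, 5.72 and 3.96 at day 10, against 6.44, 6.68, 5.31 and 6.06 at day 7. Its spread at day 10 was wide (SD 1.61, against 0.60 at day 7), and replicate 3 overlapped the day 7 arrays. Probe sets of Il13 (6532237, adjusted p = 0.00298) and Panx3 (6418380) were also among the 51.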

How the data were processed

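The deposited files hold log2 intensities of probe sets. The submitters' processing notes list RMA and limma, with no version. The sources used here give neither RMA settings nor a build. Of 92401 probe sets 85406 had 1 gene symbol in the platform annotation, and 1803 with several and 5192 with none were left out. Symbols were updated through RefSeq GRCr8 (1876 of 8016, with 27 kept as given). A gene value is the Tukey median polish of its probe sets (7997 genes, 7001 with 3 or more). All 48 arrays were fitted with limma (version 3.58.1, R 4.3.3), 1 mean for each of 12 groups, eBayes, Benjamini-Hochberg over all genes, call at adjusted p under 0.05. Differences carry limma SEs. Scripts were tested on simulated data, where diffSplice also called genes that had not been altered.

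Named genes were the 10 and 10 with the largest differences as described, up to 3 of each list by p, set injury and angiotensin system genes, and the leading genes of the other tests and of spread. The members and lists were chosen with earlier results of these data known. Of 681 list symbols 488 were measured. Within a replicate number the labels give arrays names that begin alike, and this alone was taken as pairing, since no label says what arrays of 1 number share. Deviations of same-number F arrays at days 10 and 7 correlated at 0.38, 0.06, 0.07 and 0.42, of which 2 exceed 0.1, and at -0.08 on average for other numbers. The block was run as an alternative beside those in the closing section. Promoters are RefSeq's (GRCr8). Of 16 genes looked up, the tables matched 10.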

Additional observations from a re-analysis of the deposited data

Results flagged for a closer look

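The response of strain F between day 10 and day 7 differed from that of strain LF for 17 genes by the limma test of the difference itself. The 5 with the smallest p were Mx2 (-2.79), Mx1 (-2.25), Ifi27 (-1.46), Slfn3 (-2.37) and Bst2 (-1.22, log2 response of F minus that of LF).

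Single arrays stood apart from the other 3 of their group in 11 of 292 sets of 4 values (the named genes and the array median at each of the 2 days), by a gap to the nearest array that took more of the group's range than Dixon's 95% critical value. Chance gives about 1 such set in 20. At day 10 these were C3, the complement component, in replicate 1 (gap 0.904 of the range) and Agt in replicate 1 (0.868), both with the highest array, and Hmox1 (0.874) and Atf4 (0.842) in replicate 4, both with the lowest. At day 7 they were Tsc22d3, a glucocorticoid-induced gene, in replicate 3 (0.914), the transporter Slc22a7 in replicate 3 (0.871) and, in replicate 4, Atf3 (0.862) and Lcn2 (0.831), all with the highest array. The lowest array stood apart at day 7 for Bdkrb2 in replicate 2 (0.873) and, in replicate 4, for the steroid hydroxylase Cyp2c11 (0.841) and Tyrobp (0.83).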

How the results depend on the processing

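The count of 0 genes between day 10 and day 7 in strain F, and of 0 among the list members, held under the replicate block, quantile normalization, the mean of probe sets, array weights, a fit limited to the groups compared and removal of the dimmest genes, and leaving out each array gave 0 to 1 genes (the 1 without day 10 replicate 4, and 0 in the lists). The 30 genes of day 10 minus day 0 became 52 with the replicate block, 75 after quantile normalization, 80 with array weights and 16 in the fit limited to the groups compared, and 7 to 28 without 1 array. The 55 genes of day 7 minus day 0 became 75 with the replicate block, 122 after quantile normalization and 134 with array weights. They were 37 in the limited fit and 35 to 48 without 1 array. F minus the mean of the other strains went to 15 with the replicate block and 774 with array weights (0 to 2 without 1 array), F minus L to 2 after quantile normalization and 3 with array weights (0 to 1), and F minus FL to 2 with array weights (0 to 1). F minus LF, 17 genes, gave 100 with the block, 10 after quantile normalization, 208 with array weights, 0 in the limited fit and 4 to 27 without 1 array, those of LF being left out as a choice made after seeing the data. Probe set use, 1 gene, gave 10 with the block, 6 after quantile normalization, 0 in the limited fit, 0 in the limma test of probe set minus gene mean, which was also added after seeing the data, and 0 to 19 without 1 array (19 without day 10 replicate 1). The cause of these shifts was not tested. Among named genes the replicate block gained 8 calls in F minus the mean of the other strains (Rhoh, Gfpt2, Tyrobp, Timp1, Lum, Lyz2, Tpm2 and Cyp24a1), 7 in F minus LF (Timp1, Lyz2, Tpm2, Pdia4, Tap2, Clu and Olfml1), Slc8a1 at day 10 and Slc26a4 at day 7 against day 0, and lost none. No called value changed sign. With 4 arrays a group, their number sets the precision of these values.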
